A study of Bos taurus with 12 samples.

Results

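Acetate activation and de novo fatty acid synthesis in the mammary gland were described through 8 genes, ACSS1, ACSS2, ACLY, ACACA, ACACB, FASN, THRSP and SLC25A1. Members were all non-control probes whose RefSeq transcript carried 1 of these symbols in the reference gene table, and 6 of the 8 genes had such probes. Those 6 genes held 26 of the 43653 probes on the array, which covered 12787 named genes in all. No probe matched the transcripts of FASN, the multienzyme that builds the acyl chain, or of SLC25A1, the mitochondrial citrate carrier, so neither has a value here. Only 27131 of the probes carried a symbol, and probes of these genes may be among the unnamed rest.

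The samples were mammary gland biopsies of 6 multiparous Holstein cows in mid-lactation, taken at the rear of the udder on 2 occasions per cow and hybridised to one-colour (Cy3) arrays. CONT is day 0, when the cows ate a lactation diet ad libitum, and REST is day 6 of a restriction to 50% of the net energy for lactation (NEL) they required. Each group had 6 arrays, 1 per cow, and the animal label tied the arrays in 6 pairs. The cows are numbered 1 to 6 here, and their age is not given in the sources used here. Every REST biopsy was also the later one of its cow, so restriction, time and a repeated biopsy cannot be told apart. The methods of the study describe no cows kept on the full diet throughout.

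In ruminants, acetate formed in the rumen is the main carbon source for fatty acids made in the mammary gland, and the short- and medium-chain fatty acids of milk arise there. Acetyl-CoA synthetases activate acetate, acetyl-CoA carboxylase turns acetyl-CoA into malonyl-CoA, and fatty acid synthase condenses these units. Cleavage of citrate by ATP citrate lyase, the main cytosolic source of acetyl-CoA in many non-ruminant tissues, is classically regarded as a minor route in ruminants.

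Normalized signals below are log2 units relative to the 75th percentile of each array, and a change is the REST signal minus the CONT signal of the same cow. The 12 arrays carried 43803 non-control spots each, none saturated. Cows 1 and 2 lay on slide 1, cows 3 and 4 on slide 2 and cows 5 and 6 on slide 3, with both arrays of a cow on the same slide. Slide 3 was dimmer than the others: 41.9% to 48.0% of its spots were well above background, against 61.8% to 67.9% on slides 1 and 2. Before scaling, the 75th percentile was higher in REST than in CONT in 6 of 6 cows, by 0.30 ± 0.10 log2 units (SD, n = 6). The biopsies held the markers of lactating tissue: 5 of 5 measured milk protein genes and 8 of 9 luminal epithelial genes were tested. Of the 6 adipocyte genes on the array, FABP4 was well above background on 6 CONT and 6 REST arrays, LIPE on 4 and 5, CIDEC on 4 and 4 and LEP on 2 and 2, and PLIN1 and RETN on 0 of 12.

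Testing required a probe to be well above background on all arrays of CONT, of REST or of both, and a probe passed at an adjusted p below 0.1 in limma with cow as a block. Of the 26 member probes, 9 were tested, in 5 genes, and 17 were not. All 9 tested member probes had a lower mean in REST than in CONT, and 6 passed the test as lower. None passed as higher. Across the array, 8.78% of the 19403 tested probes passed as lower and 7.22% as higher. By the brightest tested probe of each gene, 3 of 5 member genes fell, ACSS1, ACSS2 and ACACA, against 9.27% of 7930 tested genes that fell and 6.94% that rose. In the fit without the cow block, 5 member probes in 3 genes passed, against 2.73% of all probes as lower. By brightest probes, ACSS1 and ACSS2 then passed and ACACA did not, against 2.81% of genes as lower. The CONT and REST arrays did not overlap at 5 of the 9 tested member probes, against 1.5% of all tested probes that were lower in REST without overlap. These are counts over few probes, several of them in the same gene, and they do not test the pathway as a whole. In biopsies, fewer cells of a type and less RNA per cell cannot be told apart.

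**Figure D1:**
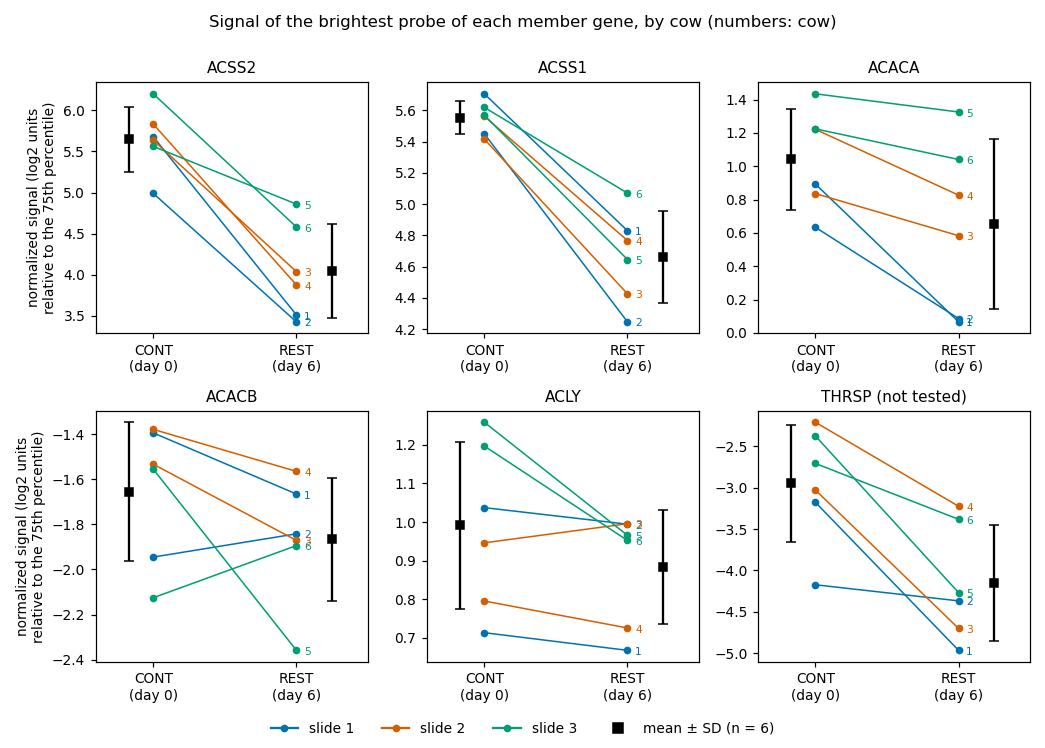
Normalized signal (log2 units relative to the 75th percentile of the array) of the brightest probe of each of the 6 measured member genes in CONT and REST; each line joins the 2 samples of a cow, numbered, with colour for the slide, and black squares with bars give the group mean ± SD. ACSS1 and ACSS2 were lower in REST in 6 of 6 cows without overlap of the groups, ACACA was lower in 6 of 6 cows with overlap, and the THRSP probe was not tested because it was well above background on only 3 CONT arrays and 1 REST array.

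By the brightest tested probes, the largest falls were at the acetyl-CoA synthetases, which activate acetate with coenzyme A. ACSS2, the enzyme of cytosol and nucleus (transcript NM_001105339), was measured by 2 probes. The brighter ACSS2 probe had a lowest, median and highest signal of 4.99, 5.66 and 6.20 in CONT and of 3.43, 3.96 and 4.86 in REST. The groups did not overlap, and the highest REST array lay below the lowest CONT array. The change of ACSS2 was -1.60 log2 units (SE 0.17, 95% interval -1.98 to -1.22, n = 6 cows), so that REST held 32.9% of the CONT signal, with an adjusted p of 0.00464 in limma. Within cows 1 to 6 the changes of this probe were -2.17, -1.56, -1.60, -1.96, -0.70 and -1.62. Cow 5 had the smallest fall, and the other 5 cows changed by -1.56 or further. The dimmer ACSS2 probe ran from 0.93 to 2.42 in CONT, with a median of 1.78, and from -0.41 to 0.79 in REST, with a median of 0.34. Its change was -1.51 (SE 0.12, adjusted p = 0.00144, limma), and its groups did not overlap either. Cow 5 fell by 1.28 on this probe, within the range of the other cows, which was -2.09 to -1.17. The 2 probes followed each other over the 12 arrays with a Pearson r of 0.98, which includes the difference between the groups.

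ACSS1, the mitochondrial acetyl-CoA synthetase, had 1 probe (transcript NM_174746). Its lowest, median and highest signals were 5.42, 5.57 and 5.71 in CONT and 4.25, 4.71 and 5.07 in REST. The groups did not overlap, and the REST arrays were spread more widely (SD 0.29) than the CONT arrays (SD 0.11). ACSS1 changed by -0.89 (SE 0.10, 95% interval -1.11 to -0.67), to 54.0% of the CONT signal, with an adjusted p of 0.00465 in limma. The changes in cows 1 to 6 were -0.88, -1.20, -0.99, -0.80, -0.92 and -0.55. Both synthetases passed the test as lower without the cow block as well, with an adjusted p of 0.0064 for ACSS1 and 0.00774 for ACSS2. Within slides 1, 2 and 3 the mean change of ACSS1 was -1.04, -0.89 and -0.74, and that of ACSS2 was -1.87, -1.78 and -1.16. By these brightest probes each slide gave a fall for both genes, and the mean fall was smallest on the dim slide 3. On the dimmer ACSS2 probe the cows of slide 2 changed by -1.35 and -1.54, and those of slide 3 by -1.28 and -1.62. For ACSS1, cow 5 of slide 3 fell further than cows 1 and 4. The difference between slides was not tested.

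Carboxylation of acetyl-CoA is the committed step of fatty acid synthesis. ACACA encodes the cytosolic carboxylase that supplies malonyl-CoA to the synthase, and ACACB encodes the isoform at the outer mitochondrial membrane, whose malonyl-CoA restrains entry of fatty acids into mitochondria. ACACA (transcript NM_174224) was measured by 3 tested probes, and each of them was lower in REST in 6 of 6 cows and passed the test. They differed in the size of the change. The brightest ACACA probe had a lowest, median and highest signal of 0.63, 1.06 and 1.43 in CONT and of 0.07, 0.70 and 1.33 in REST. These groups overlapped over much of their range. Its change was -0.39 (SE 0.11, 95% interval -0.63 to -0.14), to 76.5% of CONT, with an adjusted p of 0.0603 in limma. The brightest probe no longer passed without the cow block (adjusted p = 0.402), nor without cow 1 (-0.30), cow 2 (-0.35) or cow 4 (-0.38).

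The second ACACA probe ran from -0.08 to 0.57 in CONT, with a median of 0.23, and from -1.17 to -0.22 in REST, with a median of -0.63. Its change was -0.89 (SE 0.11, 95% interval -1.13 to -0.65), to 54.1% of CONT, with an adjusted p of 0.00644 in limma. The third ACACA probe ran from -0.45 to 0.34 in CONT, with a median of -0.18, and from -1.95 to -0.69 in REST, with a median of -0.97. Its groups did not overlap, nor did those of the second probe. The change of the third probe was -0.95 (SE 0.16, 95% interval -1.32 to -0.58), to 51.9% of CONT, with an adjusted p of 0.0174 in limma. Both dimmer probes still passed when the cow block was left out (limma, adjusted p = 0.0112 and 0.0323). In cows 1 to 6 the brightest probe changed by -0.83, -0.55, -0.25, -0.39, -0.11 and -0.18, and the second by -0.79, -1.37, -0.82, -0.79, -0.97 and -0.59. Cow 1 was the only cow in which the second probe did not fall further than the brightest. Over the 12 arrays the pairs of ACACA probes had a Pearson r of 0.39 to 0.84. All 3 are annotated to the same transcript, and the difference in change between them was not tested. As the mean of its 3 tested probes, ACACA changed by -0.74 (adjusted p = 0.00982, limma). By slide, the brightest probe changed by -0.69, -0.32 and -0.15 on slides 1, 2 and 3.

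ACACB (transcript NM_001205333) had 12 probes, of which 1 was tested. That probe was well above background on 5 CONT and 6 REST arrays. Its lowest, median and highest signals were -2.13, -1.54 and -1.38 in CONT and -2.36, -1.86 and -1.56 in REST, and the groups overlapped. The change was -0.21 (SE 0.13, 95% interval -0.51 to 0.09), with an adjusted p of 0.33 in limma, and 4 of 6 cows were lower. The interval holds 0, and a fall of the size of that of ACSS1 lies outside it. The other 11 ACACB probes were well above background on 0 of 12 arrays, and their changes without the filter ran from -0.23 to 0.04, with a median of -0.20. Dim probes elsewhere on the array shifted alike. The 11604 probes of the array that were well above background on no array had a median change of -0.21 (5th to 95th percentile -0.57 to 0.23) and 83.4% of them were lower in REST, so no direction is read from probes that were not detected.

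ACLY, the ATP citrate lyase that splits citrate into cytosolic acetyl-CoA and oxaloacetate, had 4 probes (transcript NM_001037457), of which 2 were tested. The brightest ACLY probe had a lowest, median and highest signal of 0.71, 0.99 and 1.26 in CONT and of 0.67, 0.96 and 0.996 in REST. The groups overlapped, with nearly equal medians. Its change was -0.11 (SE 0.08, 95% interval -0.29 to 0.07, adjusted p = 0.411, limma), and 5 of 6 cows were lower. The second ACLY probe ran from 0.55 to 1.46 in CONT and from 0.55 to 1.08 in REST. Its change was -0.13 (SE 0.08, 95% interval -0.32 to 0.05, adjusted p = 0.327, limma). Neither probe passed the test, and neither interval reached below -0.32. Of the 2 ACLY probes left out, one was well above background on 4 arrays of each group, all of them on slides 1 and 2. With the cows of slide 3 left out it could be tested, and its change was -0.39 with an adjusted p of 0.136 in limma. The other, well above background on 3 CONT and 2 REST arrays, changed by -0.52 without the filter. It did not pass without the filter, where the adjusted p of the ACLY probes left out was at least 0.265 (limma). By slide, the brightest ACLY probe changed by -0.04, -0.01 and -0.27 on slides 1, 2 and 3.

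**Figure D2:**
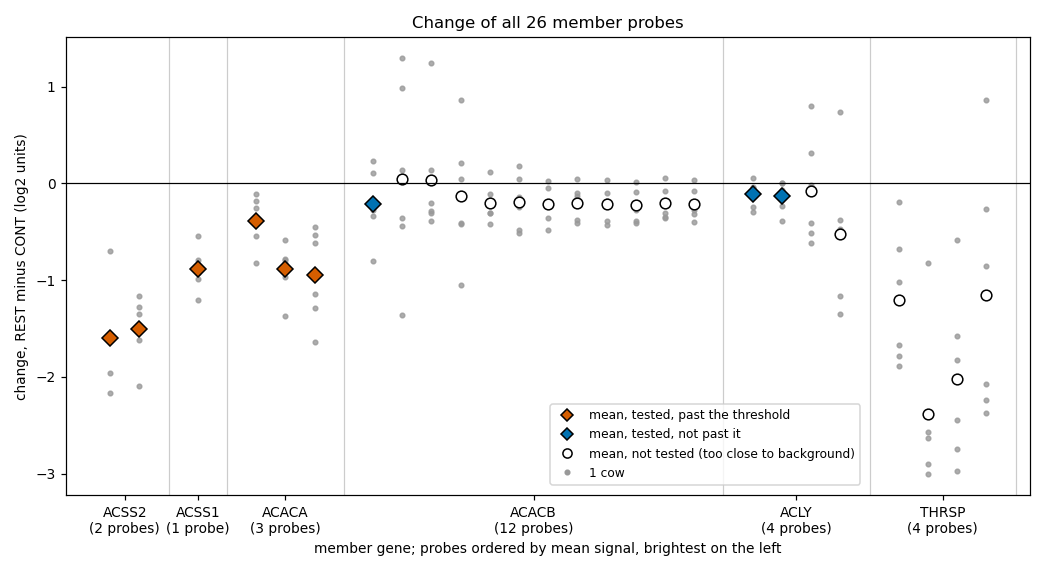
Change (REST minus CONT, log2 units) of all 26 member probes, grouped by gene; small grey points are the 6 cows and the large symbols their mean, with diamonds for tested probes, orange where the test was passed. The orange diamonds lie at ACSS1, both ACSS2 probes and all 3 ACACA probes; the ACLY and ACACB diamonds lie near 0, and the open circles of THRSP lie low but were not tested.

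THRSP, also called Spot 14, is a small acidic protein of lipogenic tissues that promotes fatty acid synthesis and forms complexes with its relative MID1IP1. Its 4 probes (transcript NM_001040533) were not tested, because none was well above background on all arrays of a group. They were above it on 2 to 4 CONT arrays and on 1 REST array each. The THRSP probe detected on 4 CONT arrays had a lowest, median and highest signal of -4.38, -2.28 and -0.32 in CONT and of -5.92, -4.93 and -3.33 in REST. These groups overlapped, and 2 CONT arrays and 5 REST arrays were not well above background. The mean change of that probe was -2.39, to 19.1% of CONT, and it was lower in each cow, with changes of -2.39, -0.83, -2.57, -3.01, -2.91 and -2.63 in cows 1 to 6. The other 3 THRSP probes changed by -1.21, -2.03 and -1.16, and of the 24 changes of single cows over the 4 probes only that of cow 5 on the dimmest probe was above 0 (0.86). All 4 groups of CONT arrays overlapped with REST.

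These THRSP values are a description of partly undetected probes. When the filter was dropped, 2 of the 4 probes passed as lower (adjusted p = 0.0518 and 0.0659, limma), against 0.534% of all 43653 probes, and without both filter and cow block none did (adjusted p of 0.262 to 0.863). Of the 11604 undetected probes, 9 passed without the filter. With the normexp background correction and no filter, the 4 THRSP changes shrank to between -0.78 and -0.37. Under that setting 73.8% of the undetected probes passed, so no call is read from it. These combinations with the filter dropped were chosen after seeing the data.

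The changes of members were set against each other within each cow, by an exact two-sided sign-flip permutation test whose smallest p with 6 cows is 0.03125. Of the 4 comparisons planned, 3 could be made, and p-values were adjusted over these 3, with the same threshold of 0.1. By the brightest probes, neither ACSS2 difference would pass in an adjustment over 4 if the p of the missing comparison were large. ACSS2 fell further than ACLY in 6 of 6 cows, with a mean difference of -1.49 ± 0.59 log2 units (SD, n = 6; exact permutation p = 0.03125, adjusted p = 0.09375). ACSS2 fell further than ACSS1 in 5 of 6 cows, with a mean difference of -0.71 ± 0.58 (SD, n = 6; exact permutation p = 0.0625, adjusted p = 0.09375). Cow 5 went the other way by these brightest probes, with a difference of 0.22, and the other cows lay between that and -1.29. ACSS2 minus ACSS1 passed only together with ACSS2 minus ACLY, which shares ACSS2 and was at the smallest p. ACACA by its brightest probe and ACACB were not told apart: the mean difference was -0.17 ± 0.50 (SD, n = 6), the cows ran from -0.65 to 0.69, and the exact permutation p was 0.46875 (adjusted p = 0.46875). With the mean of all tested probes of a gene in place of the brightest, ACACA fell further than ACACB, with a mean difference of -0.53 (exact permutation test, adjusted p = 0.09375). At that setting ACSS2 fell further than ACSS1 (-0.67) and than ACLY (-1.43), each in 6 of 6 cows. Both had an adjusted p of 0.046875 (exact permutation test). With 5 cows the smallest p of this test is 0.0625, so a difference can pass after adjustment only if another is also at that value. Without cow 5 both ACSS2 differences passed (-0.90 against ACSS1 and -1.71 against ACLY, exact permutation test, adjusted p = 0.09375). Without cow 1, 2, 3, 4 or 6 the adjusted p of both was 0.1875 (exact permutation test), with means of -0.78 to -0.60 against ACSS1 and of -1.52 to -1.37 against ACLY. ACSS2 minus ACLY was below 0 in 5 of 5 cows each time, at the smallest p the test allows.

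**Figure D3:**
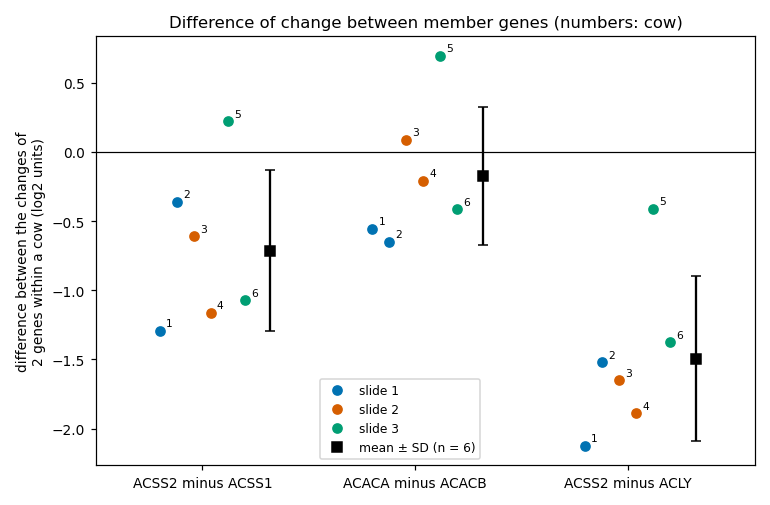
Difference between the changes of 2 member genes (log2 units, brightest probes) in each cow, numbered and coloured by slide, with the mean ± SD over 6 cows. All 6 cows lie below 0 for ACSS2 minus ACLY, 5 of 6 for ACSS2 minus ACSS1, where cow 5 is above 0, and 4 of 6 for ACACA minus ACACB.

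Over the 12 arrays, the brightest probe of ACSS2 followed that of ACSS1 with a Pearson r of 0.88, that of ACACA with 0.77, that of ACLY with 0.36 and that of ACACB with 0.13. These values describe arrays that share the difference between CONT and REST and the 3 slides. Among 7929 other tested genes ranked by likeness to ACSS2, ACSS1 stood at rank 45, ACACA at 222, ACLY at 1798 and ACACB at 3210. The 5 genes most like ACSS2 were GPX4, a phospholipid hydroperoxidase (r = 0.96), INSIG1, which retains SREBP precursors in the endoplasmic reticulum (r = 0.95), BCKDHA, a subunit of the branched-chain keto acid dehydrogenase (r = 0.94), IBA57, of mitochondrial iron-sulphur cluster assembly (r = 0.94), and NTAQ1, a deamidase of N-terminal glutamine (r = 0.94). The likeness includes the difference between CONT and REST, so its choice of genes largely fixes their direction, and the changes, -0.91, -1.98, -0.74, -0.37 and -0.30 in that order, are a description. IBA57 changed by -0.22 with normexp and either scaling.

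The genes around the pathway were taken from 6 lists. For comparison, the median change over all 7930 tested genes was -0.01, and 51.6% of them were lower; as given before, 9.27% fell and 6.94% rose. Leaving out a cow lowered the share of all genes that fell to 4.74% without cow 1, 3.29% without cow 2 and 6.62% without cow 3. It was 3.63% without cow 4, 9.19% without cow 5 and 7.25% without cow 6. The list counts at these settings are to be read against those shares. In the list of SREBP, LXR and ChREBP control, 11 of 13 genes were tested, 7 were lower, 1 fell and 1 rose, which is near those shares, with a median change of -0.09. INSIG1 fell from 4.08 ± 0.67 in CONT to 2.11 ± 0.70 in REST (SD, n = 6), a change of -1.98 (SE 0.27, adjusted p = 0.00776, limma). NR1H3, the oxysterol receptor LXRα, rose from 0.39 ± 0.19 to 0.79 ± 0.08 (SD, n = 6), by 0.40 (SE 0.10, adjusted p = 0.0482, limma). The change was above 0 in 6 of 6 cows, with a lowest value of 0.00 after rounding and a highest of 0.71. It did not pass without cow 1 (0.34), cow 2 (0.41) or cow 4 (0.36). SREBF1, which encodes the lipogenic factor SREBP-1, changed by -0.09 (adjusted p = 0.771, limma), with cows from -0.69 to 0.68, and its precursor processing cannot be read from mRNA. SREBF2 changed by -0.24 (adjusted p = 0.129, limma). MLXIPL, which encodes ChREBP, was not tested.

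Of the proteins acting on acetyl-CoA carboxylase and fatty acid synthase, 7 of 13 genes were tested, 5 were lower and 1 fell, with a median change of -0.23. The one that fell was PRKAA2, a catalytic subunit of AMP-activated protein kinase, which phosphorylates and inhibits acetyl-CoA carboxylase. It went from -0.78 ± 0.16 to -1.73 ± 0.38 (SD, n = 6), a change of -0.95 (SE 0.14, adjusted p = 0.0104, limma), and of -0.63 with normexp and the 75th percentile or -0.60 with normexp and quantiles. PRKAA1, the other catalytic subunit, changed by -0.27 (adjusted p = 0.21, limma). MID1IP1, the partner of THRSP, changed by -0.42 (adjusted p = 0.23, limma). Neither passed the test, and the differences between these genes were not tested.

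The list of citrate and NADPH supply had 9 genes, of which 7 were tested, 7 were lower and 5 fell, with a median change of -0.29, and 2 fell when the cow block was left out. IDH1, the cytosolic isocitrate dehydrogenase and a source of NADPH in ruminant mammary tissue, had the largest change of the list, -0.87 (SE 0.23, adjusted p = 0.0561, limma), from 4.14 to 3.28. PGD, the phosphogluconate dehydrogenase that yields NADPH, changed by -0.55 (SE 0.10, adjusted p = 0.0212, limma), and the cytosolic malate dehydrogenase MDH1 by -0.41 (SE 0.10, adjusted p = 0.0407, limma). IDH1 did not pass without the cow block (adjusted p = 0.111, limma), nor without cow 1 (-0.71), cow 2 (-0.70) or cow 4 (-0.81), nor did MDH1 without cow 4 (-0.42). The count of the list that fell was 2 without cow 1 or cow 2, 1 without cow 4 and 3 without cow 6. ME1, the cytosolic malic enzyme, was not tested.

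Among genes of other routes by which short-chain carbon enters, 7 of 9 were tested, 5 were lower and the same 5 fell, with a median change of -0.55, and 3 fell when the cow block was left out. BDH1, which interconverts β-hydroxybutyrate and acetoacetate, went from 3.05 ± 0.48 to 1.26 ± 1.09 (SD, n = 6), a change of -1.79 (SE 0.34, adjusted p = 0.0219, limma). OXCT1, which activates acetoacetate with coenzyme A from succinyl-CoA, changed by -0.96 (SE 0.09, adjusted p = 0.00275, limma), and SLC16A1, a carrier of monocarboxylates such as lactate and ketone bodies, by -0.69 (SE 0.16, adjusted p = 0.0363, limma). SLC16A1 did not pass without cow 2 (-0.57). The count that fell was 3 without cow 1 or cow 4 and 2 without cow 2. ACSS3, a mitochondrial acyl-CoA synthetase related to ACSS1 and ACSS2, changed by 0.08 and ACAT1 by 0.12, and neither passed.

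Mitochondrial fatty acid synthesis, a separate pathway that leads to lipoic acid, had 7 of 9 genes tested and 6 lower, with a median change of -0.21. NDUFAB1, the mitochondrial acyl carrier protein, was the only one to fall, by 0.30 log2 units (SE 0.09, adjusted p = 0.0662, limma). None fell when the cow block was left out (NDUFAB1 adjusted p = 0.122, limma), nor without cow 1, cow 2 or cow 4 (-0.26, -0.28 and -0.27), and without cow 6 the count was 2.

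In the list for the use of fatty acids in milk fat, 8 of 11 genes were tested, 8 were lower and 5 fell, with a median change of -0.31, and 2 fell when the cow block was left out. LPIN1, a phosphatidate phosphatase of triacylglycerol synthesis, changed by -1.88 (SE 0.20, adjusted p = 0.00465, limma), and by -1.24 with normexp and the 75th percentile or -1.21 with normexp and quantiles. The desaturases FADS2 and SCD changed by -0.62 (SE 0.11, adjusted p = 0.0201, limma; -0.38 with normexp and quantiles) and -0.43 (SE 0.09, adjusted p = 0.026, limma). SCD, whose product is oleate, had mean signals of 9.48 in CONT and 9.05 in REST and did not pass with quantile normalization (-0.24, adjusted p = 0.139, limma) or without the cow block (adjusted p = 0.111, limma). The count of the list that fell was 3 without cow 1, cow 2, cow 4 or cow 6.

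**Figure D4:**
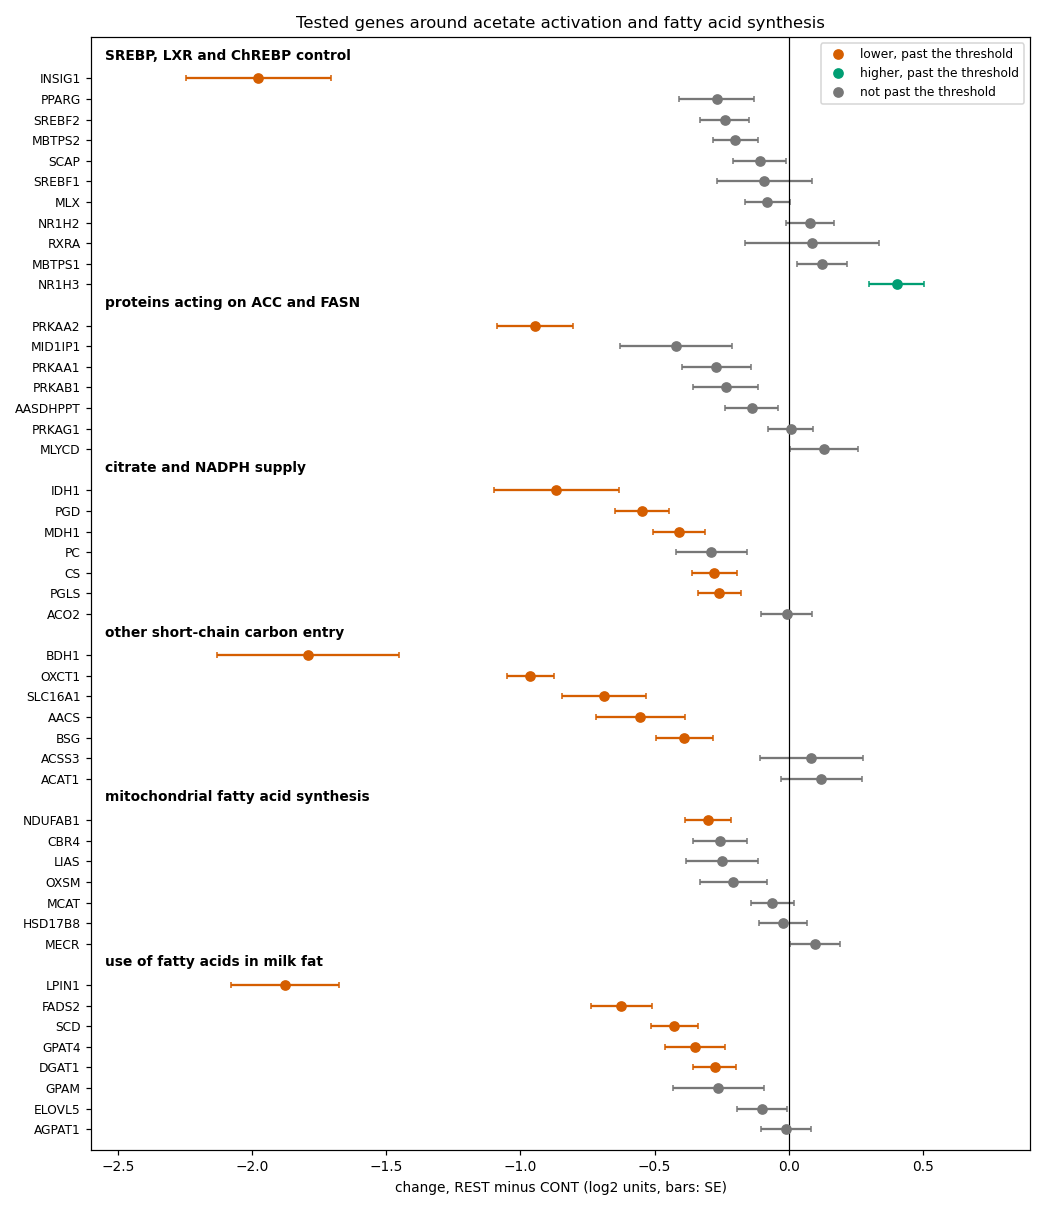
Change (REST minus CONT, log2 units) of the tested genes of the 6 lists around the pathway, 1 brightest probe per gene, with bars of 1 SE and the test result in colour. INSIG1 at -1.98, LPIN1 at -1.88 and BDH1 at -1.79 lie farthest below 0, and NR1H3 at 0.40 is the only gene that rose; without cow 1, cow 2 or cow 4 it did not pass.

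Markers of the cell types in a biopsy were read beside these values. Among 8 tested luminal epithelial genes, 3 were lower, 0 fell and 3 rose, against 6.94% of all tested genes that rose. The 3 were keratins: KRT8 rose by 0.72, KRT7 by 0.53 and KRT18 by 0.52 (limma, adjusted p = 0.0089, 0.0596 and 0.068). KRT7 and KRT18 were higher in 5 of 6 cows. The summed level of the list was 353 to 455 in CONT and 348 to 463 in REST, in units of the 75th percentile signal. ELF5, a luminal transcription factor, changed by -0.05 (adjusted p = 0.727, limma). All 5 tested milk protein genes were lower in 6 of 6 cows, with changes of -0.28 to -0.17 and a median of -0.20. Before scaling, the 75th percentile was higher in REST by a mean of 0.30 log2 units, more than the size of each of these changes. The milk protein genes were not recomputed under other scalings. CSN1S1 and CSN3 passed the test, and the list had a summed level of 4229 to 5455 in CONT and 3414 to 4479 in REST. Of the 8 adipocyte genes, FABP4 alone was tested, and it fell by 0.35 (adjusted p = 0.0447, limma); the summed level was 141 to 210 in CONT and 97.99 to 145 in REST. FABP4 is also expressed by other cells. Fibroblast genes were at 34.2 to 63.9 in CONT and 26.4 to 73.5 in REST, endothelial genes at 10.1 to 13.4 and 11.9 to 14.4 (VWF rose by 0.54), leukocyte genes at 7.89 to 10.5 and 8.60 to 11.6 (CD3E rose by 0.35), and myoepithelial genes at 74.2 to 138 and 64.7 to 129 (KRT17 rose by 0.44 and ACTA2 fell by 0.38). Skeletal muscle genes were at 2.05 to 3.73 and 1.72 to 2.94 (CKM fell by 0.36), and erythrocyte genes at 13.6 to 19.9 and 10.3 to 20.3. Of 6 tested endothelial genes 1 passed, and 1 was lower (KDR, -0.15). Of 5 leukocyte genes 1 passed, and 2 were lower (PTPRC, -0.15, and CD14, -0.09). Of 6 myoepithelial genes 1 rose, 1 fell and 4 did not pass. Of 2 skeletal muscle genes 1 fell, and the other, ACTA1, changed by 0.02. No shift of a cell type is read from single markers. Without the cow block VWF was the only marker to pass. The part of cell composition in the falls of the members was not tested.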

How the data were processed

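Per the file headers, the authors read 3 slides with Feature Extraction 11.0.1.1. The amount of total RNA, 50 ng, is given in the methods of the study. The deposited files hold a background-subtracted, detrended intensity per spot on a linear scale, not scaled between arrays, and the series-level table repeats this intensity in all 45220 cells of each array. The 75th percentile shift named in the methods of the study was computed here: log2 intensity minus that percentile of non-control spots, with marked spots left out (1 to 13 per array) and repeat spots averaged (50 probes). Symbols came from RefSeq transcripts of a reference gene table, which named 27131 of 43653 probes. That table uses another bovine assembly than the array annotation, so no positions are given.

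REST was compared with CONT in limma 3.58.1 (R 4.3.3; lmFit, eBayes, two-sided) with cow as a block, and p-values were adjusted by Benjamini-Hochberg over every probe tested (threshold 0.1). The methods of the study name no block, so the fit without it is given as an alternative. Pairing came from the animal label, and deviations from the group means correlated at 0.36 to 0.57 between the 2 arrays of a cow and at -0.33 to 0.13 between cows. A gene was represented by its brightest tested probe. Named were the members with all their probes, up to 3 genes that passed per list by size of change, and the 5 genes most like the member with the largest change. Other list genes and cell markers were named for their role after their values were seen. The members and lists were chosen with earlier results of these data known. The script was tested on simulated data. Alternatives were other scalings, normexp with an offset of 50 (on median spot signals, as the files hold no mean signals), filters, blocks and variance models, the mean of all tested probes of a gene, and a cow or slide 3 left out. Python 3.11.15 with pandas 2.3.3, scipy 1.17.1 and matplotlib 3.10.9 was used for the rest. The number of arrays limits the precision. Samples are separate biopsies of 6 cows. The series description counts 5 cows and the labels name 6. The methods of the study start from 6 Holstein cows and exclude 1 of them for mastitis. If the 6 labelled cows are those 6, the excluded cow is among them. The sources used here do not say which cow it is, and each cow was therefore left out in turn.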

Additional observations from a re-analysis of the deposited data

Results flagged for a closer look

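One array stood apart in 1 of the 18 groups of 6 values examined (9 tested member probes in CONT and in REST), where chance alone would give 0.9 at 1 in 20. It was the third ACACA probe in REST: cow 2 had a normalized signal of -1.95, the next lowest cow -1.13 and the median was -0.97, and this gap was 0.652 of the whole range. The change of cow 2 on that probe was -1.64, and on the brightest ACACA probe -0.55.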

How the results depend on the processing

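ACSS1 and ACSS2 passed as lower under 21 of 21 alternatives, with changes of -0.97 to -0.83 and of -1.82 to -1.49, while ACLY (-0.14 to -0.03, 21 alternatives) and ACACB (-0.30 to -0.09, 20 alternatives) passed under none. ACACB had no value when a probe had to be well above background on all 12 arrays, and ACLY minus SLC25A1 could not be computed for lack of a SLC25A1 probe. ACACA by its brightest probe did not pass without the replicate block for cow (-0.39, adjusted p = 0.402), with cow as a random block (-0.39, 0.115), without the filter (-0.39, 0.175), without moderation of variances (-0.39, 0.125), or with normexp and the 75th percentile (-0.26, 0.125) or quantile scaling (-0.25, 0.131); with a cow left out its change was -0.44 to -0.30. It passed under 12 of 21 alternatives, among them the mean of all tested probes (-0.74, 0.00982). The number of member probes that fell was 4 to 6 throughout. ACSS2 minus ACSS1 did not pass with normexp and the 75th percentile (-0.68) or quantiles (-0.71), or without slide 3 (-0.86), and was -0.90 to -0.60 with a cow left out; ACSS2 minus ACLY did not pass without slide 3 (-1.80) and was -1.71 to -1.37 with a cow left out. With the 4 cows of slides 1 and 2 the smallest p of this test is 0.125, so no difference could pass there, and both were below 0 in 4 of 4 cows. ACACA minus ACACB passed with the mean of all tested probes (-0.53) and was -0.35 to -0.08 with a cow left out. Without the replicate block the counts of lists that fell were 2 (citrate and NADPH), 3 (short-chain carbon), 0 (mitochondrial synthesis) and 2 (milk fat). With quantile scaling, mitochondrial synthesis had 0 and milk fat 3, against 8.16% of all genes that fell. With normexp and the 75th percentile, mitochondrial synthesis had 3. With a cow left out, the counts were 1 to 4, 2 to 5, 0 to 2 and 3 to 4 in the same order of lists, and 1 to 2 lower and 0 to 1 higher for SREBP, LXR and ChREBP control. No tested member, pair of members or gene named for passing or for likeness to ACSS2 reversed its direction under these alternatives, and other genes were not recomputed. With normexp and the 75th percentile, 8.65% of all genes fell and 9.02% rose. Without the filter IDH1, PGD, MDH1, SLC16A1, BDH1, NDUFAB1, FADS2, SCD and NR1H3 did not pass (limma, adjusted p of 0.107 to 0.183). There 0.782% of all genes fell and 0.681% rose. Without moderation IDH1, BDH1, SLC16A1 and NR1H3 did not pass (limma, adjusted p of 0.1004 to 0.169). Without slide 3 MDH1 and NDUFAB1 did not (limma, 0.127 and 0.114). INSIG1, PRKAA2, OXCT1 and LPIN1 passed at each of these settings. Over all probes, 3104 passed with the cow block, 836 without the replicate block, 388 without the filter (43653 probes tested), 1898 with slide as a block, 1852 without moderation, and 1045 (without cow 2) to 3252 (without cow 5) with a cow left out, among them 1533 without cow 1 and 1205 without cow 4. The cause of these shifts was not tested. The dim slide 3 limited which probes could be tested, and leaving it out raised the number of tested probes from 19403 to 26901.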
